A study of Homo sapiens with 4 samples.

Results

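The splicing proteins described here were 66 genes of the SR, hnRNP, SF3A, SF3B, U2AF and RBM families that carried an m6A-seq peak in RPMI-8226 cells, of 12792 genes with a peak in all. Members were taken by gene symbol from the authors' deposited tables: SRSF, SF3A, SF3B, U2AF or RBM followed by a number, HNRNP followed by letters or numbers, and SYNCRIP, without pseudogenes and without RBM15 and RBM15B, which belong to the m6A writer complex. Apart from having a row in a list, no peak value entered this rule, but it was set with earlier results of these data known. RPMI-8226 is an established human multiple myeloma line. The cells had been transduced with lentivirus and carried either the control hairpin shNC or shALKBH5, a hairpin against the RNA demethylase ALKBH5, with no other treatment given in the labels. Poly(A) RNA of each condition was sequenced once after anti-m6A immunoprecipitation (IP) and once without it (input), which gave 4 libraries and 1 peak list per condition. All of the cells were of 1 line, and the peak tables do not show how far ALKBH5 was reduced. With 1 list per condition no difference between shNC and shALKBH5 can be set against replicate error, so no test between conditions was made, and the intervals given are exact 95% Clopper-Pearson intervals that cover counting error only.

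SR proteins bind exonic enhancers and recruit the early spliceosome, while many hnRNPs bind exonic or intronic silencers and oppose exon inclusion. U2AF recognises the 3′ splice site, and SF3A and SF3B are the U2 snRNP subcomplexes that hold the branch point. RBM proteins are a mixed group that share an RNA recognition motif and include spliceosome components, splicing regulators and ribosome assembly factors. N6-methyladenosine (m6A) is the most common internal mark of mRNA, is placed mostly in long internal exons and around stop codons, and is removed in the nucleus by ALKBH5. Close to the cap, an adenosine as the first transcribed base can carry the related mark m6Am, which antibodies against m6A also bind.

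At their gene starts, 10 of the splicing proteins had a peak in the shALKBH5 list with no overlapping shNC peak. Their starts are shown because an antibody to m6A also binds m6Am, which depends on the first transcribed base. Each sequence runs 5′ to 3′ on the gene's strand and is taken from RefSeq on GRCh38.p14, with 10 bases before the start and 20 from it on. The capital letter is the annotated RefSeq start, called the first transcribed base below. The start used in these cells was not measured. Of the start peaks, 12 of 20 for shNC and 20 of 33 for shALKBH5 began upstream of the RefSeq gene start.
HNRNPA3, chr2:177212784-177212813, plus strand: cgagtccggtCtcaaaatggaggtaaaacc
HNRNPC, chr14:21269423-21269452, minus strand: cctcggcggcAgaggagactcgggggccat
HNRNPH3, chr10:68331683-68331712, plus strand: cggggccctcAcagaatttgttcacggtgg
HNRNPLL, chr2:38602909-38602938, minus strand: ttgcgtccccAtccttagattcgctcctcc
HNRNPU, chr1:244864524-244864553, minus strand: gctcctgcgaGaggacgttgcgtgctcgct
RBM10, chrX:47145211-47145240, plus strand: gcgcttccttAgtaggtggatggtggtcgg
RBM26, chr13:79406236-79406265, minus strand: agacttcatcAattctcgcgagatttaccg
RBM4B, chr11:66677868-66677897, minus strand: gaagcagcgcGcactcgcgcgtgcgtgagc
SF3A3, chr1:37990003-37990032, minus strand: gctgggcggcAggagttgcttccggccgtg
SRSF4, chr1:29181881-29181910, minus strand: ctcgcgagctGcgtgctcgcgtacgtcgcc
For comparison, the following start sequences are examples from the 20 splicing protein genes with a start peak in both lists. They do not stand for the whole set, and the shares given after them are for all 20.
SRSF3, chr6:36594352-36594381, plus strand: aggcggtggtCcgccatttcgtggacgccg
SRSF10, chr1:23980308-23980337, minus strand: gtgtgtgtctGaggctcggccgcctgagcc
HNRNPA2B1, chr7:26200727-26200756, minus strand: ctctagcggcAgtagcagcagcgccgggtc
HNRNPAB, chr5:178204523-178204552, plus strand: cggcattgtcAggcggcggcaccgcgcggg
SYNCRIP, chr6:85643851-85643880, minus strand: cgccccggggGacacgtgcgcctgcagctt
RBM14, chr11:66616620-66616649, plus strand: gtcgccagccAttcctgaggaggactgccg
U2AF2, chr19:55655025-55655054, plus strand: cggcggaagtAgccgaagcggctggagcgg
The first transcribed base was A in 6 of the 10 genes of the first set (60.0%, interval 26.2% to 87.8%) and in 8 of all 20 genes with start peaks in both lists (40.0%, interval 19.1% to 63.9%). It was A in 50.7% of 15843 protein-coding genes with an entry in the same RefSeq table and in 28 of the 59 splicing proteins with an entry (47.5%). The intervals of these shares overlapped. In the first set, the shALKBH5-only peaks of HNRNPH3, RBM10 and RBM26 (first base A) and of RBM4B (first base G) began downstream of the first base. HNRNPU, with 1 start peak of each kind, counts in both sets. The letters GGAC, a common m6A consensus, were searched on the sense strand in the 50 transcribed bases that the table holds. They occurred in 1 of the 10 genes with an shALKBH5-only start peak (HNRNPU, from base 3), in 6 of the 20 with start peaks in both lists (30.0%), and in 19.7% of all protein-coding genes. SRSF3 holds them from base 13 and RBM14 from bases 12 and 28. A match in these letters describes the sequence and is not a mapped methylation site.

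In all, 22448 peaks of 11318 genes were listed for shNC, and 24626 peaks of 12088 genes for shALKBH5. A peak is listed with its blocks, the stretches left after introns are removed. Its enrichment of IP over input, called the fold, and its log10 p value are the authors' own, and they are used below only to describe and rank peaks within a list. A partner is a peak of the other list that shares at least 1 block base. Without a partner were 12.6% of all shNC peaks and 19.8% of all shALKBH5 peaks. Genes listed in 1 condition alone made up 5.50% of all genes with a peak for shNC and 11.5% for shALKBH5.

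Peaks of the splicing proteins numbered 133 for shNC and 134 for shALKBH5, and most of them occupied the same places in both lists. RefSeq holds 85 protein-coding symbols of these families, of which 66 (77.6%) had a peak, against 47.7% of all protein-coding symbols. The tables do not show expression, so a gene without a row may lack the mark or may not have been expressed enough to be called. By family, 9 of 12 SRSF genes, 22 of 27 HNRNP genes with SYNCRIP, 7 of 11 SF3 and U2AF genes, and 28 of 35 RBM genes had a row. Among those with no row were SRSF2 (SC35) and SRSF7, HNRNPK, SF3B1 (the branch-point subunit often mutated in blood cancers), U2AF1, RBM5 and RBM8A. Merging overlapping peaks gave 150 sites, of which 107 (71.3%) were in both lists, 22 in the shNC list alone and 21 in the shALKBH5 list alone. Of the shNC peaks, 23 had no partner (17.3%, interval 11.3% to 24.8%), and of the shALKBH5 peaks 21 had none (15.7%, interval 9.97% to 23.0%). For shNC this lies above the 12.6% over all peaks and for shALKBH5 below the 19.8%, but both intervals hold the share over all peaks. With the lists shortened to equal length, the shares were 18.8% and 12.6% for the splicing proteins and 15.2% and 15.1% over all peaks.

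At the level of genes, 61 of the 66 had peaks in both lists, 3 in the shNC list alone (SRSF1, SF3A1 and SF3B2) and 2 in the shALKBH5 list alone (HNRNPA1 and SF3A3). Over all 12792 genes with a peak, 5.50% were in the shNC list alone and 11.5% in the shALKBH5 list alone. The 5 splicing protein genes in 1 list alone were listed at low folds, from 1.20 to 1.92. None of them stayed when peaks under 2 times the lowest fold of a list were left out. The genes in 1 list alone were then HNRNPH1 for shNC, and HNRNPH3 and SRSF6 for shALKBH5. That fold minimum also left 10 of 99 shNC peaks without a partner (10.1%, against 13.8% over all peaks). In 30 genes the number of peaks was equal, in 16 it was higher for shNC and in 20 higher for shALKBH5. All peaks had a partner in 33 genes. List-only peaks of the splicing proteins had lower folds and weaker p than their peaks with a partner. Their median fold was 1.87 (shNC) and 2.24 (shALKBH5), beside 5.35 and 4.82 for splicing protein peaks with a partner. Over all peaks the median folds lay closer together, at 4.91 and 5.43 without a partner and 6.69 and 6.81 with one. For the splicing proteins, median log10 p was -6.06 and -5.95 without a partner, against -51.4 and -39.7 with one. Over all peaks the medians of log10 p were -4.21 and -4.32 without a partner and -21.3 and -23.5 with one, so weaker p in list-only peaks was not particular to these genes.

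**Figure D1:**
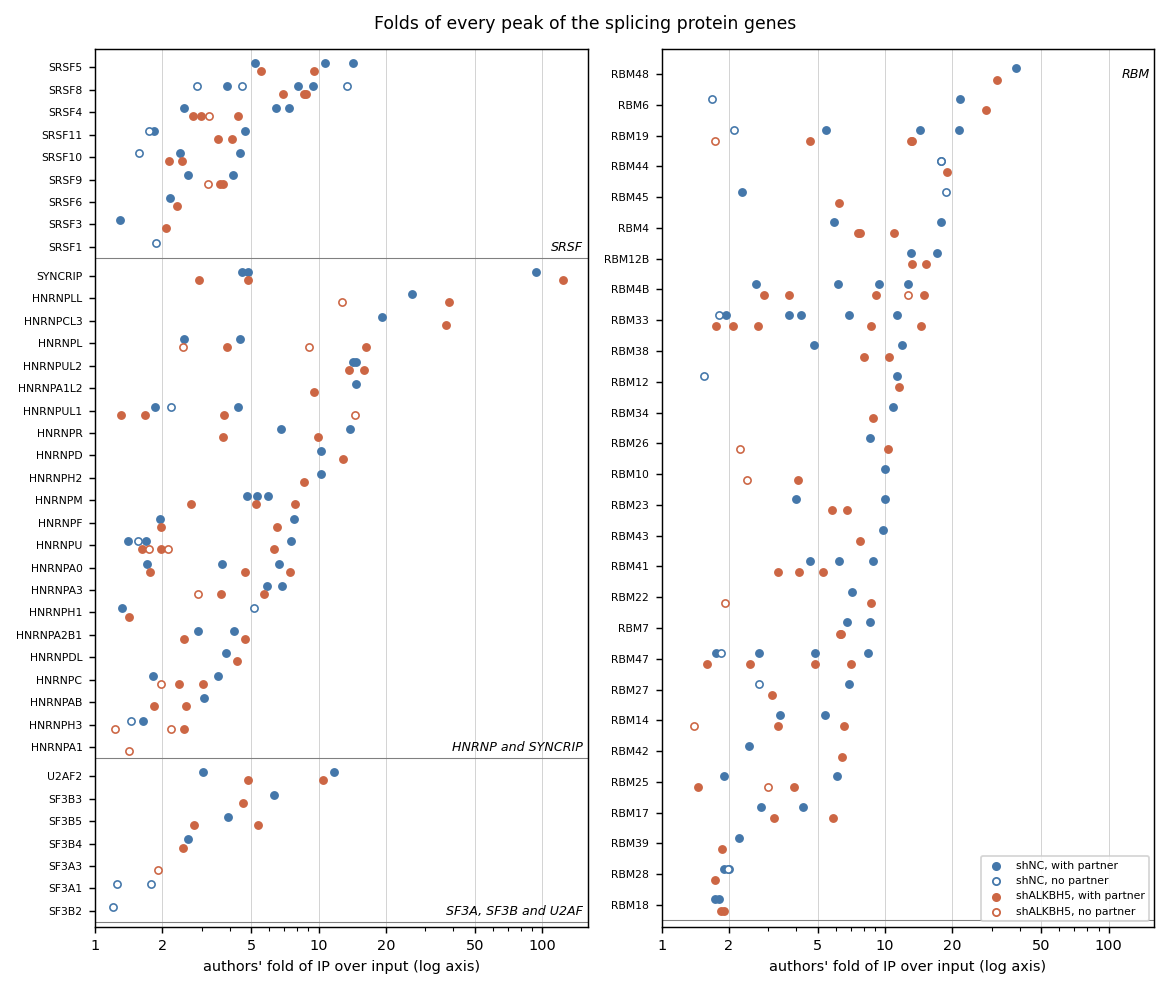
Fold of IP over input (log axis) of every peak of the 66 splicing protein genes, by gene and family, in the shNC (blue) and shALKBH5 (orange) lists, with open circles for peaks without a partner. Most open circles lie at folds below those of the peaks with a partner, and SYNCRIP, at 93.7 and 124, has the highest fold in both lists.

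The plot of sites by family shows how the list-only sites were spread. SRSF genes had 5 sites in the shNC list alone and 2 in the shALKBH5 list alone, while HNRNP genes with SYNCRIP had 4 and 11. RBM genes had 10 and 7, and the SF3 and U2AF genes 3 and 1. As a share of peaks, 6 of 23 shNC peaks of SRSF genes (26.1%, interval 10.2% to 48.4%) and 2 of 18 shALKBH5 peaks (11.1%, interval 1.38% to 34.7%) had no partner. For HNRNP genes the shares were 4 of 41 (9.76%, interval 2.72% to 23.1%) and 11 of 50 (22.0%, interval 11.5% to 36.0%), close to the 12.6% and 19.8% over all peaks. The intervals of the SRSF and HNRNP shares overlap in both lists, and a difference between the families was not tested. Peaks of 1 gene are not independent: 3 of the 6 SRSF peaks in the shNC list alone were rows of SRSF8, some of which overlap each other.

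**Figure D2:**
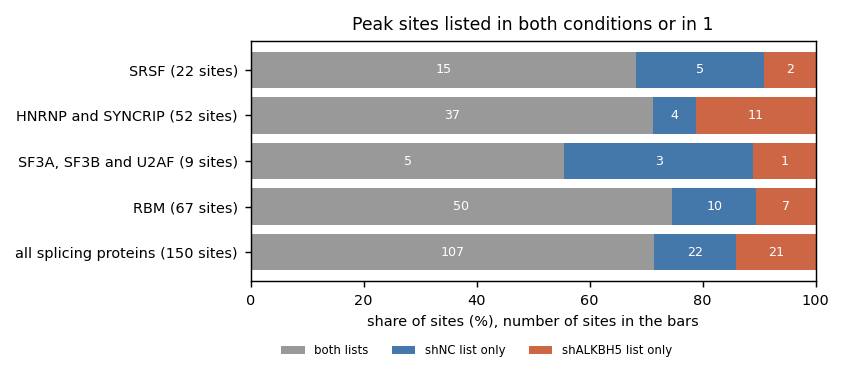
Share (%) of merged peak sites per family that were listed in both conditions, for shNC alone or for shALKBH5 alone, with the number of sites in each bar. Sites in both lists are the largest class in every family, and the HNRNP genes with SYNCRIP are the only family with more shALKBH5-only (11) than shNC-only (4) sites.

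Among the SR proteins, SRSF5, which promotes inclusion of enhancer-bearing exons, had its strongest peak by p within 1000 bp of the gene end, at chr14:69771287-69771616 in the shNC list (fold 5.18, log10 p -218) and at chr14:69771317-69771616 in the shALKBH5 list (fold 5.53, log10 p -252). The folds of 14.3 and 10.7 for shNC and 9.50 for shALKBH5 that put SRSF5 highest in its family belonged to peaks upstream of its RefSeq span with log10 p of only -3.50, -4.75 and -6.76. SRSF8, a close relative of SRSF2, had 6 rows for shNC and 3 for shALKBH5. Its strongest peak by p, chr11:95067943-95068629, had identical borders for shNC (fold 8.05) and shALKBH5 (fold 8.60). The 3 shNC-only rows of SRSF8 stood at folds of 13.4, 2.87 and 4.55, and the first and second of them overlap each other. SRSF8 reads can be hard to tell from SRSF2, so its peaks are uncertain in origin.

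SRSF4, a large SR protein also called SRp75, had 3 peaks near its end in each list. The strongest stood at fold 7.40 (log10 p -424) in the shNC list and 4.34 (log10 p -217) in the shALKBH5 list. Its shALKBH5-only start peak, chr1:29181777-29181927, had fold 3.22 and log10 p -7.49. SRSF11, a U2AF-binding SR-like protein, had its main peak at chr1:70250344-70250867 in the shNC list (fold 4.70, log10 p -275), with a partner at fold 3.54. SRSF3, a small SR protein that the nuclear m6A reader YTHDC1 is known to recruit, had a start peak in each list, at fold 1.29 (log10 p -2.64) for shNC and 2.07 (log10 p -14.9) for shALKBH5. SRSF10, whose binding YTHDC1 is known to oppose, also had a start peak in each list, at folds of 4.46 and 2.45, and an shNC-only peak at fold 1.57. SRSF1, the prototype SR protein, was listed once, in the shNC list at chr17:58003509-58003718 with fold 1.87 and log10 p -18.2. SRSF2 was in neither list. SRSF6 and SRSF9 had partners for all shNC peaks, and SRSF9 had 1 shALKBH5-only peak. In each of the 8 SRSF genes listed in both conditions, the peak with the strongest p had a partner.

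Among the hnRNPs, SYNCRIP (hnRNP Q) had the highest folds of all the splicing proteins. Its start peak spanned chr6:85642879-85643792 in the shNC list with fold 93.7 (log10 p -55.3), and chr6:85642969-85643792 in the shALKBH5 list with fold 124 (log10 p -41.0). By fold both ranked at percentile 99.9 of their list, but by p at percentiles 74.1 and 70.2. HNRNPLL, which controls alternative splicing of CD45 in lymphocytes and plasma cells, had an internal peak at fold 26.1 for shNC and 38.3 for shALKBH5, with log10 p of -111 and -116. It was also listed with an shALKBH5-only start peak, chr2:38602857-38603036, at fold 12.7 and log10 p -8.31. HNRNPCL3, a retrogene relative of HNRNPC, followed at folds of 19.2 and 37.1, and reads of such copies may belong to HNRNPC.

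HNRNPL, which binds CA repeats, had its strongest peak at chr19:38849334-38850024 in the shNC list, with fold 4.43 and log10 p -224. In the shALKBH5 list that peak ran to base 38850144, with fold 16.3 and log10 p -363. HNRNPL also had 2 shALKBH5-only peaks, at fold 2.47 (log10 p -13.8) and fold 9.05 (log10 p -3.83). HNRNPU, a nuclear matrix-associated RNA-binding protein, had 4 shNC and 5 shALKBH5 peaks. Its main peak crossed a junction near the start, at fold 7.50 (log10 p -1150) for shNC and 6.29 (log10 p -687) for shALKBH5. An shALKBH5-only peak over the HNRNPU start, chr1:244864410-244864560, had fold 1.74 and log10 p -15.6, and an shNC-only internal peak, chr1:244855885-244855975, had fold 1.56 and log10 p -21.7. These were the list-only peaks of the splicing proteins with the strongest p in each list.

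HNRNPUL1, an HNRNPU-like protein, had a peak in each list at folds of 4.34 and 3.77. A further shared site had 1 shNC peak at fold 1.86 and 2 shALKBH5 peaks at folds of 1.67 and 1.31. There was also 1 list-only peak on each side, at fold 2.19 for shNC and 14.5 for shALKBH5. The latter had log10 p of only -3.54. HNRNPA2B1, proposed as a nuclear reader of m6A, had a peak of 5 blocks at fold 4.20 (log10 p -472) in the shNC list and 4.70 (log10 p -430) in the shALKBH5 list, and a start peak in both at folds of 2.88 and 2.51. HNRNPC, whose U-tract sites can be exposed by m6A, had a pair of shared internal peaks, the first at fold 3.56 (shNC) and 3.03 (shALKBH5) and the second at 1.82 (shNC) and 2.38 (shALKBH5). Its start peak, at fold 1.98 and log10 p -6.58, was in the shALKBH5 list alone. HNRNPA3 had an shALKBH5-only start peak at fold 2.90 (log10 p -6.98) that crossed the first junction, and HNRNPH3, which binds G-rich RNA, had one at fold 2.18 (log10 p -12.4), beside weaker internal list-only peaks at fold 1.45 for shNC and 1.23 for shALKBH5. HNRNPA1, a repressor of splicing with many processed copies, was listed in the shALKBH5 list alone at fold 1.42 and log10 p -3.61, and its reads are uncertain for that reason. The remaining hnRNP genes had partners for all peaks, except HNRNPH1, where 1 shNC peak had none.

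In the U2 snRNP group, U2AF2, the large U2AF subunit that binds the polypyrimidine tract, had the highest folds, at 11.7 (log10 p -638) for shNC and 10.5 (log10 p -552) for shALKBH5, in a peak that covered its start. Its end peak stood at folds of 3.05 and 4.83. SF3B3, an SF3B scaffold subunit, had 1 peak per list with the same borders, chr16:70571761-70572121, at fold 6.34 (log10 p -977) and 4.60 (log10 p -640). SF3B4 had 1 peak per list at folds of 2.61 and 2.48. SF3B5 had a peak over its start at fold 3.92 in the shNC list, where the shALKBH5 list had 2 peaks at folds of 5.33 and 2.76. These 4 genes had a partner for every peak. No peak of SF3A1, SF3A3 or SF3B2 had one. SF3A1 had 2 shNC-only peaks, at folds of 1.25 and 1.78, and SF3B2 had 1 at fold 1.20. SF3A3 had an shALKBH5-only start peak at fold 1.92 and log10 p -8.40.

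Among the RBM proteins, RBM48, a component of the minor spliceosome, had the highest folds, at 38.6 for shNC, with a p listed at 0, and 31.6 (log10 p -348) for shALKBH5. RBM6, a relative of the splicing regulators RBM5 and RBM10, had a 3-block peak of 1557 bases with the same outer ends in both lists, at folds of 21.6 and 28.3. RBM19, a nucleolar ribosome assembly factor, had an end peak at folds of 21.4 and 13.0, and the same stretch was listed again in an overlapping row at 14.3 and 13.2. The RBM19 peak with the strongest p was internal and shared, at fold 5.41 (log10 p -25.9) for shNC and 4.60 (log10 p -27.7) for shALKBH5. RBM19 also had 1 list-only peak in each list, at fold 2.11 for shNC and 1.74 for shALKBH5. RBM44, a germ-cell RNA-binding protein, had folds of 17.8 for shNC and 19.0 for shALKBH5, with log10 p of only -4.52 and -5.06. RBM33, known to bind m6A RNA and ALKBH5, had 6 shNC and 5 shALKBH5 peaks. Its strongest stood at fold 11.3 (log10 p -137) for shNC and 14.5 (log10 p -185) for shALKBH5, and its 1 list-only peak, in the shNC list, had fold 1.80. RBM47, a cofactor of C-to-U editing, had 5 shNC and 4 shALKBH5 peaks, of which the strongest stood at folds of 8.34 and 7.03.

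RBM10, a splicing repressor, had an internal peak at folds of 9.95 and 4.09. Its shALKBH5-only start peak had fold 2.41 and log10 p -9.25 and shared bases with a row of NDUFB11. RBM26, a component of a nuclear RNA decay machinery, had an shALKBH5-only start peak of 91 bases at fold 2.24 and log10 p -3.31. RBM4B, a close copy of RBM4, had one at fold 12.7 and log10 p -5.81, and 4 more sites in both lists. RBM28, a nucleolar protein found with spliceosomal snRNPs, had 2 shNC-only peaks at folds of 1.98 (log10 p -10.8) and 2.01 (log10 p -6.60) beside a shared one. All 28 RBM genes with a peak were in both lists. Some RBM and hnRNP peaks shared bases with rows of other genes, 13 for shNC and 12 for shALKBH5, such as RBM34 with ARID4B, RBM12 with CPNE1 and RBM4 with the read-through gene RBM14-RBM4. The labels do not say how strand was treated, so reads of these overlapping genes cannot be told apart.

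The shALKBH5 list held more splicing protein peaks at gene starts than the shNC list. A start peak has its 5′ edge less than 500 bp downstream of the RefSeq gene start, or upstream of it. Of the placed peaks (those overlapping their gene's RefSeq span), 20 of 129 in the shNC list (15.5%, interval 9.73% to 22.9%) and 33 of 130 in the shALKBH5 list (25.4%, interval 18.2% to 33.8%) lay at a start. Over all placed peaks the shares were 11.4% and 14.5%. For the shALKBH5 list the interval lies above the share over all peaks. Start peaks were found in 20 genes for shNC and 30 for shALKBH5, and all 20 were among the 30. Over all genes, start peaks were found in 2158 for shNC and 2978 for shALKBH5. In HNRNPAB and in SF3B5, 1 shNC start peak stood where the shALKBH5 list had 2. Of the shNC start peaks, none lacked a partner, with an upper bound of 2.82% of the placed peaks, against 1.55% over all placed peaks. Of the shALKBH5 start peaks, 10 lacked one (7.69%, interval 3.75% to 13.7%), against 5.19% over all placed peaks. Both intervals hold the share over all peaks. The 10 genes were HNRNPA3, HNRNPC, HNRNPH3, HNRNPLL, HNRNPU, RBM10, RBM26, RBM4B, SF3A3 and SRSF4, those with the first set of start sequences.

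Among the placed list-only peaks, none of 23 in the shNC list and 10 of 20 in the shALKBH5 list (interval 27.2% to 72.8%) were at a start. Over all genes the same shares were 12.7% and 27.1%. Among peaks with a partner, start shares of the splicing proteins were 18.9% and 20.9%. For the splicing proteins and for all genes alike, the share at a start was higher among shALKBH5-only than among shNC-only peaks. Blocks covered the first transcribed base in 6 of the 10, and HNRNPH3, RBM10, RBM26 and RBM4B began downstream of it. Alternatives tried alone were the fold minimum, equal list lengths, a reciprocal overlap of 50%, a partner within 200 bp and a partner on the same strand. Of these settings, only the 200 bp one could give a list-only peak a partner. The fold minimum and equal lengths could only leave it out, and the other settings could do neither. Under all of the settings, 5 of the 10 stayed listed without a partner: SRSF4, HNRNPA3, HNRNPLL, RBM4B and RBM10. Among the rest, only HNRNPU gained a partner, within 200 bp. The fold minimum left out the peaks of HNRNPU, SF3A3, HNRNPC and HNRNPH3, and equal list lengths left out that of RBM26. Which of shALKBH5, library depth and the input accounts for the additional start peaks cannot be told apart with 1 IP and 1 input per condition.

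**Figure D3:**
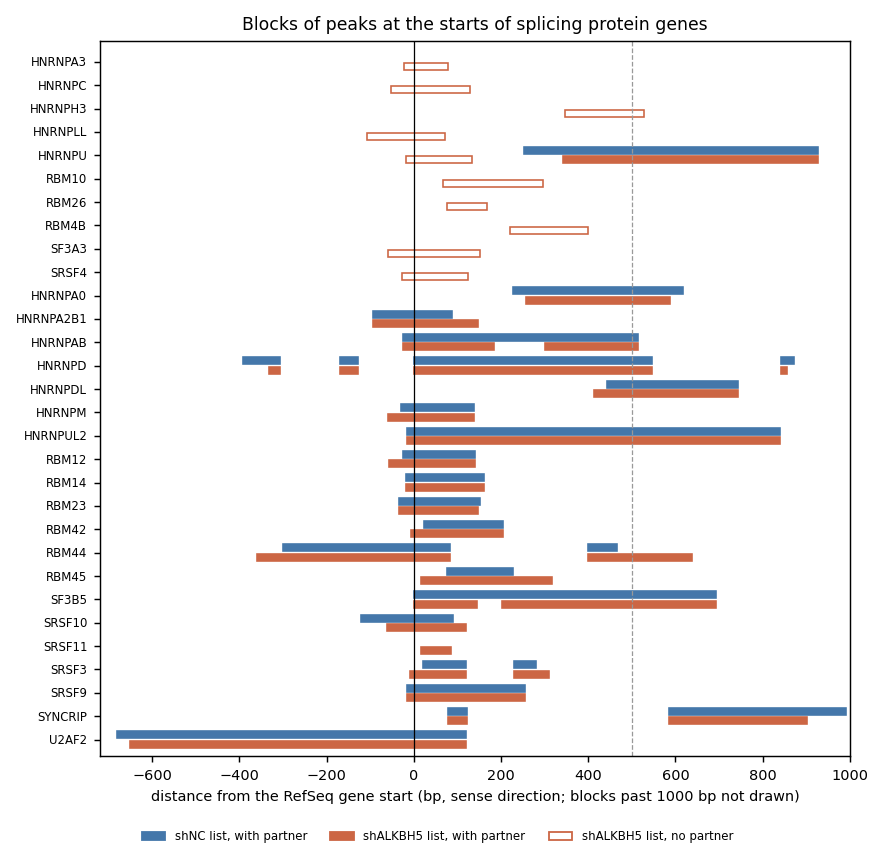
Blocks of start peaks of the 30 splicing protein genes with one, by distance (bp) from the RefSeq start in the sense direction, with the shNC list in blue, the shALKBH5 list in orange, and open bars for peaks without a partner; blocks past 1000 bp are not drawn and the dashed line marks 500 bp. The 10 peaks with open bars are all from the shALKBH5 list, and among the genes without an open bar only SRSF11 has no shNC bar, since its shNC partner lies farther from the start.

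Gene ends held a smaller share of the splicing protein peaks than of all peaks. An end peak has its 3′ edge less than 1000 bp from the RefSeq end and is not a start peak. Peaks that met both rules, as in SF3B5, were counted at the start only. End peaks made up 19 of 129 placed shNC peaks (14.7%, interval 9.11% to 22.0%) against 23.0% over all peaks, and 19 of 130 shALKBH5 peaks (14.6%, interval 9.03% to 21.9%) against 22.1%. Both intervals lie below the share over all peaks. With an end window of 500 bp the counts were 11 and 12. The remaining peaks lay between the windows, 69.8% and 60.0% of the placed peaks. End peaks made up 7.50% and 6.25% of the placed HNRNP peaks and 15.0% and 17.2% of the RBM peaks. For SRSF genes the shares were 23.8% and 29.4%, not below those over all peaks.

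**Figure D4:**
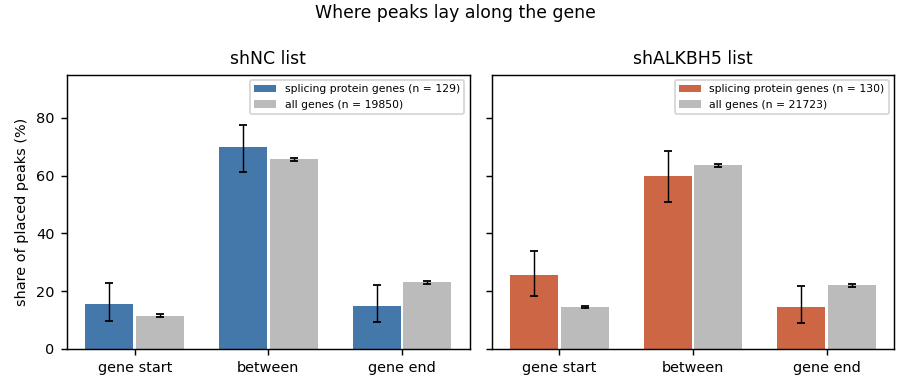
Share of placed peaks at the start, between and at the end of genes (percent), for the splicing proteins and for all peaks, in each list, with exact 95% intervals as error bars. Splicing protein peaks lay at starts in 15.5% and 25.4% of cases against 11.4% and 14.5% over all peaks.

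Peaks that cross a junction made up a larger share of the splicing protein peaks than of all peaks. Those of more than 1 block numbered 41 of 133 in the shNC list (30.8%, interval 23.1% to 39.4%) against 17.4% over all peaks, and 36 of 134 in the shALKBH5 list (26.9%, interval 19.6% to 35.2%) against 17.9%. The HNRNP genes with SYNCRIP had 16 of 41 (39.0%) and 18 of 50 (36.0%) and the RBM genes 18 of 61 (29.5%) and 13 of 59 (22.0%), with HNRNPD and HNRNPA2B1 at 5 blocks each in the shNC list. SRSF genes had 4 of 23 (17.4%) and 4 of 18 (22.2%), and the SF3 and U2AF genes 3 of 8 (37.5%) and 1 of 7 (14.3%). The intervals of these SRSF, SF3 and U2AF shares, and of the RBM share for shALKBH5, hold the share over all peaks. Peaks with identical blocks in both lists numbered 21 in each, 15.8% of the shNC and 15.7% of the shALKBH5 peaks, against 12.5% and 11.4% over all peaks.

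By fold the splicing protein peaks ranked low, and by p they ranked high. Their median fold was 4.63 (shNC) and 4.21 (shALKBH5), beside 6.54 and 6.64 over all peaks, whereas their median log10 p was -26.1 and -26.9 against -15.8 and -15.3. Among the top 10% of a list by fold were 5 splicing protein peaks of each list (3.76% and 3.73%), against 10.0% of all shNC peaks and 10.0% of all shALKBH5 peaks. By p, 30 and 31 of them were in the top 10% (22.6% and 23.1%). Read counts of IP and input are not analysed here, so the part of transcript abundance in these ranks was not tested. In the shNC list the RBM48 peak, with a p listed at 0 and no readable log10 p, was ranked first by rule. Its order against the strongest readable values is therefore unknown. Among splicing protein peaks with a readable value, HNRNPF, a G-tract binding protein, was strongest at log10 p -1870 (fold 7.80). Then came HNRNPR, a relative of SYNCRIP, at -1190 (fold 6.81), HNRNPU at -1150 and RBM38, a p53 target that binds AU-rich elements, at -1140 (fold 11.9). In the shALKBH5 list HNRNPF stood first at -1590 (fold 6.53) and RBM38 second at -1120 (fold 10.4). Across 89 pairs of splicing protein peaks that partnered each other one to one, Spearman's rho between the lists was 0.82 for fold and 0.94 for log10 p, and across 14575 such pairs of all genes it was 0.79 and 0.92. These pairs share the libraries, and genes are not replicates.

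**Figure D5:**
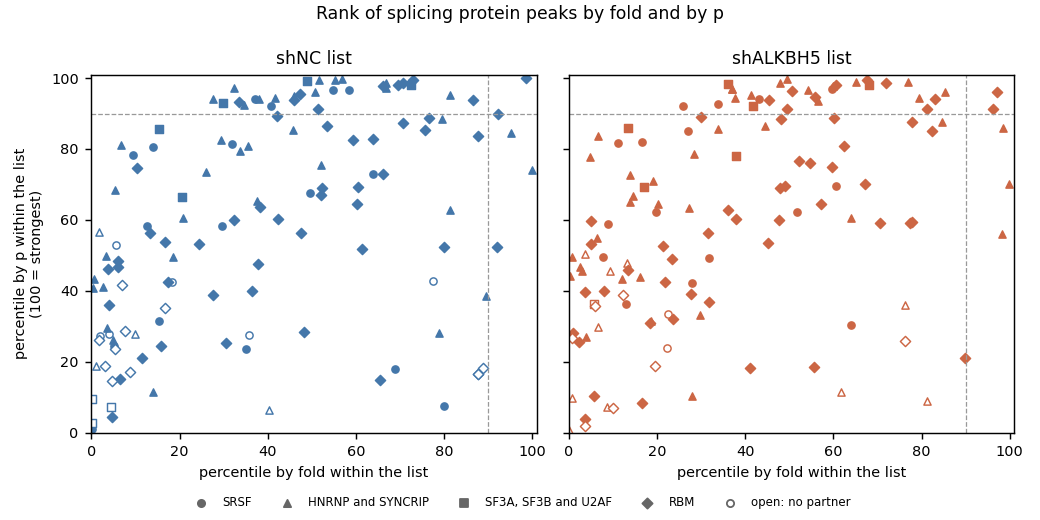
Percentile of each splicing protein peak by p (vertical, 100 is strongest) against its percentile by fold (horizontal) within its own list, by family, with open symbols for peaks without a partner and dashed lines at the top 10%. In both lists 5 peaks lie right of the vertical line, while 30 (shNC) and 31 (shALKBH5) lie above the horizontal line.

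A further list of 92 splicing genes, which the symbol rule did not take, was described in the same way. It holds RBMX (hnRNP G) and RBMX2, which are related to the genes above. Of these, 71 had a peak, 64 in both lists, 2 in the shNC list alone (RBFOX2 and PSPC1) and 5 in the shALKBH5 list alone (SNRPG, BUD31, MAGOH, CLASRP and ESRP1). Their shNC peaks numbered 152, of which 15 (9.87%) had no partner, and their shALKBH5 peaks 166, of which 27 (16.3%) had none. Start peaks without a partner numbered 1 for shNC and 8 for shALKBH5, beside 307 (1.55%) and 1127 (5.19%) of all placed peaks. The highest folds were those of SCAF11, an SR-related factor, at 25.6 for shNC and 118 for shALKBH5, of the muscleblind-like regulators MBNL1 (53.5 and 27.1) and MBNL2 (54.0 and 18.0), and of the SR protein kinase CLK3 (41.0 and 33.0). By group, peaks were listed for 6 of 12 U1, U2 and Sm proteins, 6 of 10 proteins of the U4, U5 and U6 snRNPs, 12 of 15 proteins of later complexes and the exon junction complex, 17 of 20 SR kinases and SR-like proteins, and 30 of 35 other regulators.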

How the data were processed

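Per the labels' protocols, poly(A) RNA was purified from total RNA of RPMI-8226 cells and sequenced as input or after anti-m6A immunoprecipitation, 1 library of each kind per condition. Per the submitters' processing notes, fastp 0.19.11, BWA 0.7.12, HOMER 4.9.1 and hg38 were used, with no role given; no source used here names the peak caller or its thresholds. The 2 peak lists were used as deposited. Per the file headers, each row gives blocks, a p-value, a log10 p score and a fold enrichment ratio computed by the authors. Read counts are not in these columns, so the depth behind a value is unknown. Log10 p cells could not be read as numbers for 2 shNC peaks and 1 shALKBH5 peak; their p-values are listed at 0 by the authors and were ranked first.

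The members and lists were chosen with earlier results of these data known. Peaks were partnered by at least 1 shared block base with strand ignored and placed on RefSeq gene spans of GRCh38.p14 by symbol: 129 of 133 and 130 of 134 splicing protein peaks overlapped their span. Sequences came from the RefSeq promoter table. Named genes were, per family, the 4 with the highest fold and the 2 with the most peaks, plus genes in 1 list alone, genes with a list-only peak at log10 p below -10 or at the start, and HNRNPC, HNRNPA2B1, SRSF1, SRSF2, SRSF3 and SRSF10; HNRNPF, HNRNPR, RBM38, HNRNPH1, HNRNPD and the genes given as examples of shared rows or of missing rows were named after their values were seen. Alternatives changed the overlap rule, strand, fold minimum, list length, windows, merging, gene assignment and ranking; a start from the promoter table was added after seeing the data. The partner and placement steps were tested on simulated data. Python 3.11.15, pandas 2.3.3, numpy 2.4.6, SciPy 1.17.1 and matplotlib 3.10.9 were used.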

Additional observations from a re-analysis of the deposited data

How the results depend on the processing

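Of 53 values recomputed under alternatives, 46 stayed within 1.5 times the reported count and 7 did not. A fold minimum, set at 2 times the smallest fold in each list, left 10 shNC peaks without a partner in place of 23, and 1 gene in the shNC list alone (HNRNPH1) in place of 3; the genes in the shALKBH5 list alone were then HNRNPH3 and SRSF6, so none of the 5 genes named for 1 list stayed. A reciprocal overlap of 50% gave 1 shNC start peak without a partner in place of 0. An end window of 500 bp gave 11 and 12 end peaks in place of 19 and 19. Ranking by p put 30 and 31 peaks in the top 10% in place of 5 and 5. Under the fold minimum, equal length, reciprocal overlap, 200 bp and same-strand settings, each alone, 5 of 23 shNC and 8 of 21 shALKBH5 list-only peaks stayed listed without a partner. By their rules, only the 200 bp setting could give any of them a partner, and it left 21 shNC and 18 shALKBH5 peaks without one. The others that did not stay were left out of their own list by the fold minimum or by equal length. Merging was followed by counts only. The start from the promoter table, chosen after seeing the data, moved 1 peak, an shNC peak of SRSF11. The causes of these shifts were not tested, except that fewer peaks enter the first and a narrower window the third. No paired analysis was possible because each condition has 1 IP and 1 input library, which also leaves no library that can be left out. Without read counts, a site missing from a list may be present below the authors' threshold.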
